A study of Rattus norvegicus with 24 samples.

Results

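The 9 genes Syp, Sv2a, Syn1, Syn2, Rab3a, Vamp2, Stx1a, Snap25 and Syt1 encode proteins of the synaptic vesicle and of the machinery that fuses it with the presynaptic membrane. They were chosen by symbol, and each was found as 1 row among the 17420 genes of the deposited expression table. All 9 had values above the table's offset of 0.0001 in all 24 pups, and all 9 were among the 13371 genes tested.

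A synaptic vesicle is filled with transmitter, held near the release site, docked, and fused with the plasma membrane when calcium enters the nerve ending. Synaptophysin (Syp) and synaptic vesicle glycoprotein 2A (Sv2a) sit in the vesicle membrane, synapsins 1 and 2 (Syn1, Syn2) hold vesicles in reserve clusters, and the small GTPase Rab3a helps to bring them to the release site. The SNARE proteins synaptobrevin 2 (Vamp2) on the vesicle and syntaxin 1A (Stx1a) and SNAP-25 (Snap25) on the target membrane drive fusion, and synaptotagmin 1 (Syt1) is the calcium sensor that triggers it. In the late fetal forebrain these genes are transcribed in young neurons, many of which have formed few synapses yet.

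RNA was sequenced from the hippocampus and neocortex, dissected together from each of 24 Sprague-Dawley rat pups on embryonic day 18. The 4 groups held 6 pups each, from 2 litters of 3 pups. Saline dams were injected on gestational day 17, and the control diet held 20.3% protein. MAM dams were given methylazoxymethanol acetate, a DNA-methylating agent, at 22 mg/kg, and Poly I:C dams were given polyinosinic:polycytidylic acid, a synthetic double-stranded RNA that mimics viral infection, at 7.5 mg/kg, both 18 hours before collection. Low Protein dams ate a diet with 6.1% protein from gestational day 11, with no injection described. The treatment was applied to the dam, so the pups of 1 litter share 1 exposure, and p-values over 6 pups treat littermates as separate samples. The sexes were not separated, and the diet of the MAM and Poly I:C dams was not given in the sources used here.

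The values are TPM as deposited, a transcript abundance scaled to a fixed library total. They sum to 70350 in every pup and are scaled by the length of the whole gene, introns included, so that a gene with long introns such as Syt1 has a low value, and levels are compared here between pups and not between genes. From the spacing of the lowest values, the depth was estimated at 24.3 to 68.4 M reads (megareads) per pup, and its median was 29.95 M reads for Poly I:C and 42.6 M reads for Saline. The lowest estimated number of reads on any of the 9 genes in any pup was 492, for Syn2, which gives a counting error of 4.51%. In tissue of many cell types, fewer neurons and less RNA per neuron cannot be told apart. The pups labelled Poly I:C 2.2 and 2.3 (litter 2, pups 2 and 3) stood apart for the vesicle genes, as described below. Counts of genes called for Poly I:C in the main fit are given with and without them. The permutation and rescaled counts include both pups.

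Promoter sequences of 3 of the genes are shown because they belong to the genes that were lower at an unadjusted p under 0.05 in at least 2 of the 3 treatment groups. Each runs from 250 bases before the annotated start to 50 bases after it, as given by RefSeq for the GRCr8 build, which is not the rn6 build of the expression files. Syp is at chrX:17536400-17536699 on the minus strand, Syn1 at chrX:3725495-3725794 on the plus strand and Vamp2 at chr10:54292539-54292838 on the plus strand. Capitals mark the GC box GGGCGG, the core letters bound by Sp1-type factors, and the cyclic AMP response element TGACGTCA, each searched on both strands. Their letters do not allow them to overlap each other.
Syp: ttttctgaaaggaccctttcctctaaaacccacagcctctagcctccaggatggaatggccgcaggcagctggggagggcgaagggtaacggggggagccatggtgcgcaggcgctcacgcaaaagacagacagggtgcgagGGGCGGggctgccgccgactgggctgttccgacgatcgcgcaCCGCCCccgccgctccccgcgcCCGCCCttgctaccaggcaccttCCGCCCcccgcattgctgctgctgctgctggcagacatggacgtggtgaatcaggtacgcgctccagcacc
Syn1: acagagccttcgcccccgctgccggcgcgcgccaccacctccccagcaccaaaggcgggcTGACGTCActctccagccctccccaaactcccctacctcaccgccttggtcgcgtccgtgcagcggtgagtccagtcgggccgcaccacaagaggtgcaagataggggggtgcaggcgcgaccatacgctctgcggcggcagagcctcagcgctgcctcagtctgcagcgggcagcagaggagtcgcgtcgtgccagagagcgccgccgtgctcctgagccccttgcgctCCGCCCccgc
Vamp2: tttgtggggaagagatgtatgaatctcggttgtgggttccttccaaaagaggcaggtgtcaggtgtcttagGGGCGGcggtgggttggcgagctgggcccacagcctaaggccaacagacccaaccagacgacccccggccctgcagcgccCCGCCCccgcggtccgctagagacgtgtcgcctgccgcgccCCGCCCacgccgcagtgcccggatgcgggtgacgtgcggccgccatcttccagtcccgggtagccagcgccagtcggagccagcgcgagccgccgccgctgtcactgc
Of the 9 genes, 8 had an entry (Snap25 did not), and 7 of those 8 (all but Sv2a) held a GC box, against 33.1% of 33469 rat promoters of the same length. The cyclic AMP element was in Syn1 alone, against 1.83% of all promoters. The G+C content of the 8 promoters ran from 60% in Sv2a to 71% in Syn1, and the median of all promoters was 51.7%.

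Most of the vesicle and release genes had slightly lower means in the treated pups. Of the 9 genes, 8 had a lower mean log2 value than Saline in all 3 treatment groups, Snap25 being the exception, and 32.2% of all genes tested were lower in all 3. Over the 9 genes the median log2 fold change was -0.17 for Low Protein, -0.14 for MAM and -0.18 for Poly I:C, where the medians of all genes tested were -0.02, -0.07 and 0.00. At an unadjusted p under 0.05 in limma, with no minimum fold change, 3 of 9 were lower for Low Protein (Syp, Syn1, Vamp2), 3 for MAM (Syp, Syn1, Syt1) and 4 for Poly I:C (Syp, Syn2, Rab3a, Vamp2). None was higher. Such genes are described as called below. The same rule called 4.43%, 7.64% and 5.35% of all genes lower. With 1 pup left out at a time the counts were 0 to 5, 0 to 4 and 3 to 6, and without Poly I:C pups 2.2 and 2.3 the Poly I:C count was 0, against 2.2% of all genes called lower.

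After Benjamini-Hochberg adjustment over 13371 genes, limma called 0 of 9 in each comparison, with adjusted p of 0.686 to 0.989 for Low Protein, 0.509 to 0.897 for MAM and 0.397 to 0.983 for Poly I:C. Among all genes tested, the share called after adjustment was 0%, 0.015% (2 genes) and 0%. The exact permutation test (both sides), whose smallest p for 6 pups against 6 is 0.00216, was under 0.05 in 5 genes for Low Protein, 5 for MAM and 3 for Poly I:C, all lower, against 6.75%, 10.6% and 4.03% of all genes that were lower by that test. In no gene were all 6 treated pups below all 6 Saline pups, which held for 0.524%, 0.658% and 0.284% of all genes. The 3 comparisons share the same 6 Saline pups and are not independent of each other.

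**Figure D1:**
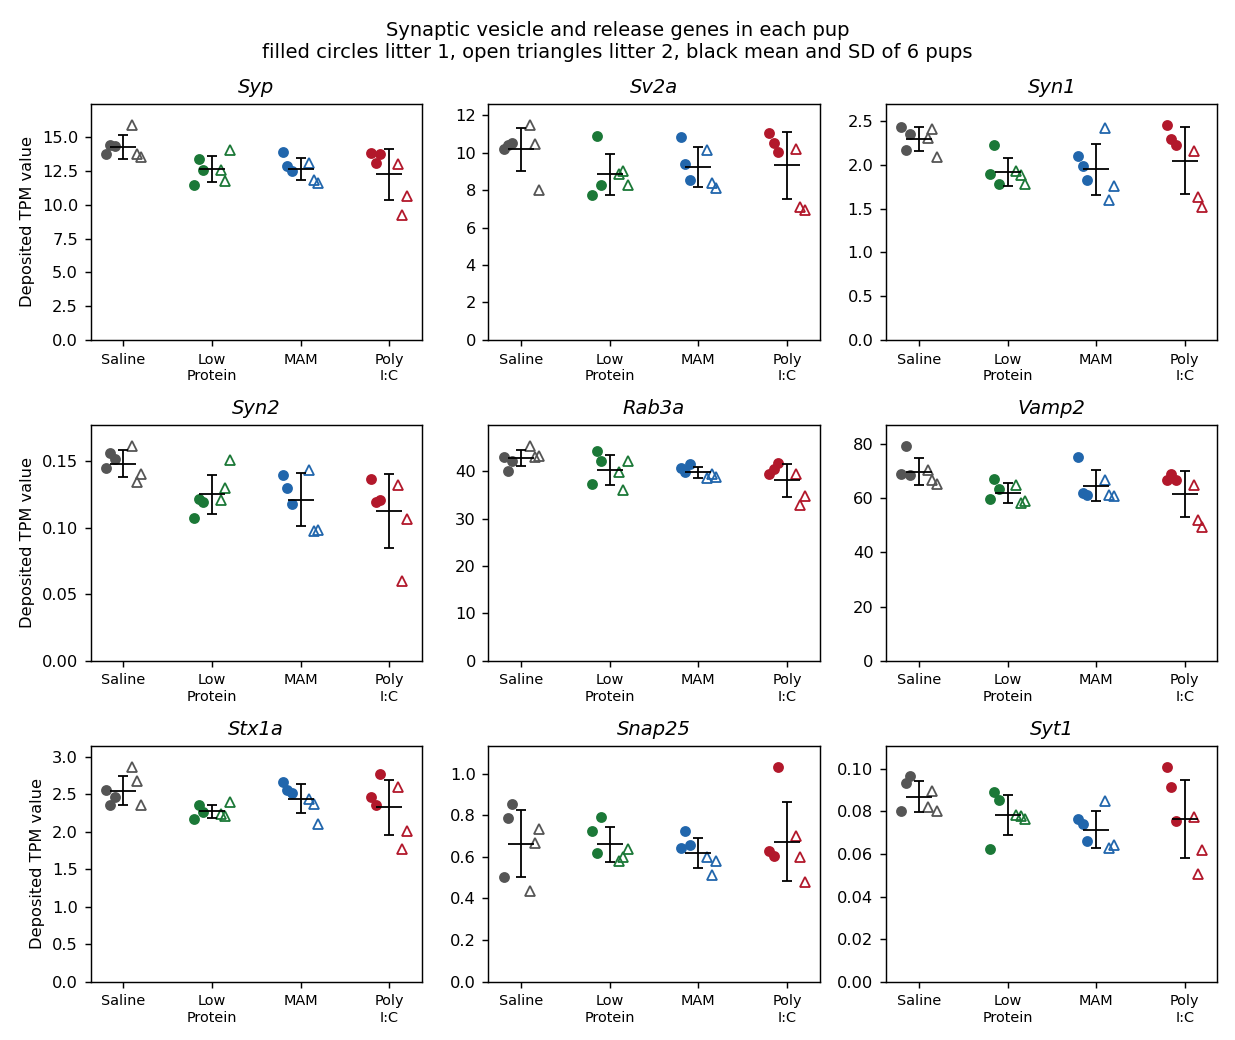
Deposited TPM value (y axis, linear, from 0) of each gene in each pup of the 4 groups (x axis), with litter 1 as filled circles, litter 2 as open triangles and the mean and SD of 6 pups in black. Treated means lie below the Saline mean in most panels, and treated and Saline pups overlap in every gene. No treated pup lies below every Saline pup for Snap25, and for Sv2a 1 Low Protein, 0 MAM and 2 Poly I:C pups do. The lowest Syp values are 9.24 and 10.6 in 2 Poly I:C pups of litter 2.

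Syp, a vesicle membrane protein widely used as a marker of presynaptic endings, was the one gene lower at an unadjusted p under 0.05 in all 3 groups. Its TPM had a lowest, median and highest value of 13.5, 14.1 and 15.9 among the Saline pups, 11.5, 12.6 and 14.0 among those of Low Protein, 11.6, 12.7 and 13.9 among those of MAM and 9.24, 13.1 and 13.9 among those of Poly I:C. All 6 pups of each treatment group were below the Saline median, and 5 Low Protein, 5 MAM and 4 Poly I:C pups were below every Saline pup. The fitted log2 change was -0.18 for Low Protein, -0.18 for MAM and -0.23 for Poly I:C, with an SE of 0.085. The limma p was 0.0474, 0.0496 and 0.0120 before adjustment, with adjusted p of 0.701, 0.510 and 0.406, and the exact permutation p was 0.0130, 0.00866 and 0.0195. The unadjusted p in the first 2 groups lay close to the threshold. When each of the 24 pups was left out in turn it stayed under 0.05 in 11 of 24 fits for Low Protein, with a highest p of 0.110, and in 7 of 24 for MAM, with a highest p of 0.114. In Poly I:C it stayed under 0.05 in all 24, but without pups 2.2 and 2.3 together the change was -0.09 with an unadjusted limma p of 0.185. With litter as a random block in limma, the unadjusted p was 0.0487, 0.0510 and 0.0126, so the MAM call was lost. That block used the same within-litter correlation for all genes (0.0075) and so changed the fit little. In limma on litter means, where the dam is the unit, the unadjusted p for Syp was 0.175, 0.179 and 0.0930.

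Sv2a, a transporter-like glycoprotein of the vesicle membrane, had lower means in the treated groups with wide overlap. The lowest, median and highest TPM were 7.99, 10.4 and 11.5 among the Saline pups, 7.76, 8.59 and 10.9 among those of Low Protein, 8.13, 8.98 and 10.9 among those of MAM and 6.94, 10.1 and 11.1 among those of Poly I:C. One Saline pup was at 7.99 and the other 5 were at 10.2 or higher, and each treatment group had pups within the Saline range. Log2 fold changes were -0.20, -0.14 and -0.14 (SE 0.12), and none passed at an unadjusted p of 0.05 in limma (0.108, 0.261 and 0.243). The lowest Saline value was that of pup 2.3, and without it the Low Protein difference was -0.27 with an unadjusted limma p of 0.0345. Without Low Protein pup 1.2, the highest of its group, the p was also under 0.05.

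Of the synapsins, Syn1 was called lower for Low Protein and MAM and Syn2 for Poly I:C, and Syn2 had the largest fold change of the 9 genes in MAM and in Poly I:C. Syn1 had a lowest, median and highest TPM of 2.09, 2.33 and 2.43 among the Saline pups, 1.78, 1.89 and 2.22 among those of Low Protein, 1.60, 1.90 and 2.42 among those of MAM and 1.52, 2.20 and 2.45 among those of Poly I:C. In Low Protein 5 of 6 pups and in MAM 4 of 6 were below every Saline pup, against 2 of 6 in Poly I:C. Fold changes on the log2 scale were -0.26, -0.24 and -0.18 (SE 0.11), with unadjusted limma p of 0.0263, 0.0362 and 0.110 and exact permutation p of 0.00649, 0.0325 and 0.216. Left out in turn, 2 Low Protein pups (1.3 and 2.3) moved the Low Protein p past 0.05, to at most 0.0514. For MAM, 7 pups did so (MAM 1.3, 2.2 and 2.3 and Saline 1.1, 1.3, 2.1 and 2.2), with a highest p of 0.100. Timp1 lies inside Syn1 on the other strand, and whether the authors' counting used strand was not given in the sources used here.

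Syn2 values were lowest in the Poly I:C group. The lowest, median and highest TPM were 0.135, 0.148 and 0.161 among the Saline pups, 0.108, 0.121 and 0.151 among those of Low Protein, 0.0976, 0.124 and 0.143 among those of MAM and 0.0603, 0.120 and 0.137 among those of Poly I:C. Below every Saline pup were 5 Low Protein, 5 Poly I:C and 4 MAM pups. Its log2 change was -0.25 for Low Protein, -0.30 for MAM and -0.44 for Poly I:C (SE 0.15), with unadjusted limma p of 0.111, 0.0560 and 0.00815 and exact permutation p of 0.0130, 0.0130 and 0.00433. The value of 0.0603 belonged to Poly I:C pup 2.2. Without that pup the Poly I:C difference was -0.27, still with p under 0.05, and the spread of the pooled fit narrowed so that the Low Protein and MAM p were 0.0188 and 0.00548.

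Rab3a, the vesicle GTPase, had the smallest standard error of the 9 genes. Its lowest, median and highest TPM were 40.1, 43.1 and 45.3 among the Saline pups, 36.1, 41.0 and 44.2 among those of Low Protein, 38.5, 39.6 and 41.6 among those of MAM and 32.8, 39.4 and 41.8 among those of Poly I:C. All MAM and all Poly I:C pups were below the Saline median, and 4 of 6 in each were below every Saline pup. The log2 fold changes were -0.09, -0.11 and -0.17 (SE 0.059), with unadjusted limma p of 0.137, 0.0866 and 0.00775. The exact permutation p was 0.123, 0.00866 and 0.00649. The Poly I:C p stayed under 0.05 when any 1 of the 24 pups was left out. Without Poly I:C pups 2.2 and 2.3 together the Poly I:C difference was -0.09 with an unadjusted limma p of 0.112, and with litter 1 alone it was -0.08 with an unadjusted limma p of 0.208.

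Among the SNARE genes, Vamp2 was called lower for Low Protein and Poly I:C, and Stx1a and Snap25 did not pass in any group. Vamp2 had a lowest, median and highest TPM of 65.2, 68.7 and 79.2 among the Saline pups, 58.0, 61.5 and 67.0 among those of Low Protein, 60.7, 61.6 and 75.2 among those of MAM and 49.3, 65.7 and 68.7 among those of Poly I:C. Below every Saline pup were 5 Low Protein, 4 MAM and 3 Poly I:C pups. The log2 fold changes were -0.17, -0.12 and -0.19 (SE 0.080), with unadjusted limma p of 0.0458, 0.166 and 0.0243 and exact permutation p of 0.00866, 0.113 and 0.0541. The Low Protein p stayed under 0.05 in 13 of 24 fits that each left out 1 pup, with a highest p of 0.119. The Poly I:C p moved past 0.05 without Poly I:C 2.2, without Poly I:C 2.3 or without Saline 1.2, to at most 0.0847. Without both of those Poly I:C pups the difference was -0.06 with an unadjusted limma p of 0.356.

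Stx1a, the syntaxin of the release site, had a lowest, median and highest TPM of 2.36, 2.52 and 2.87 among the Saline pups, 2.17, 2.25 and 2.4005 among those of Low Protein, 2.10, 2.48 and 2.67 among those of MAM and 1.78, 2.41 and 2.77 among those of Poly I:C. All 6 Low Protein pups were below the Saline median, while MAM and Poly I:C pups lay on both sides of it. The log2 fold changes were -0.16, -0.06 and -0.14 (SE 0.086), with unadjusted limma p of 0.0741, 0.475 and 0.107 and exact permutation p of 0.0108, 0.377 and 0.236.

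Snap25 was the exception among the 9 genes. Its lowest, median and highest TPM were 0.437, 0.700 and 0.853 among the Saline pups, 0.582, 0.630 and 0.793 among those of Low Protein, 0.512, 0.621 and 0.725 among those of MAM and 0.477, 0.616 and 1.03 among those of Poly I:C. No treated pup was below the lowest Saline pup, and the Saline SD of 0.162 around a mean of 0.663 was the widest of the 9 genes in relation to its mean. The log2 fold changes were 0.02, -0.07 and 0.02 (SE 0.16), and the 95% intervals were -0.32 to 0.36 for Low Protein, -0.41 to 0.27 for MAM and -0.32 to 0.36 for Poly I:C. Except for the Poly I:C change of Syn2 (-0.44), these intervals include changes as large as those of the other 8 genes in the same comparison.

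Syt1, the calcium sensor, was lower in MAM at an unadjusted p under 0.05. The lowest, median and highest TPM were 0.0800, 0.0859 and 0.0968 among the Saline pups, 0.0622, 0.0781 and 0.0893 among those of Low Protein, 0.0627, 0.0703 and 0.0848 among those of MAM and 0.0508, 0.0763 and 0.101 among those of Poly I:C. In MAM 5 of 6 pups were below every Saline pup, and the Poly I:C pups reached from below to above the Saline range. The log2 fold changes were -0.16, -0.29 and -0.22 (SE 0.13), with unadjusted limma p of 0.234, 0.0356 and 0.0989 and exact permutation p of 0.0952, 0.0108 and 0.190. Leaving out MAM 1.3, 2.2 or 2.3 or Saline 1.2, 1.3 or 2.2 moved the MAM p past 0.05, to at most 0.0770.

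**Figure D2:**
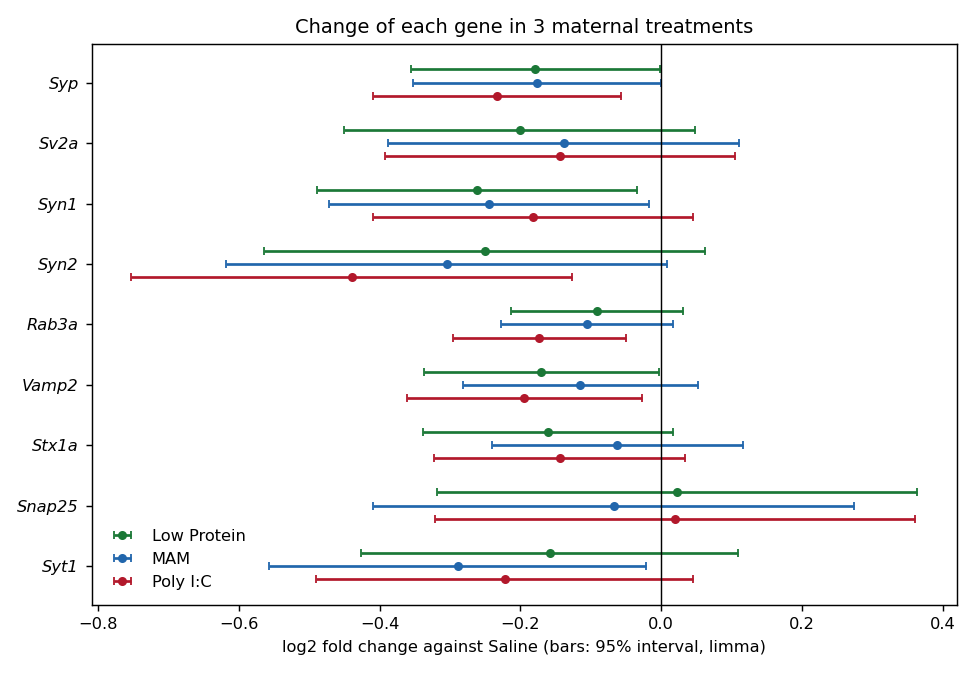
Log2 fold change against Saline (x axis) of each gene (y axis) for Low Protein, MAM and Poly I:C, with 95% intervals from limma over 24 pups. Of the 27 points, 25 lie below 0, the intervals of 10 exclude 0, and the Snap25 points lie at 0.02, -0.07 and 0.02.

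In MAM the table as a whole was shifted in the same direction as these genes. There, 70.6% of all genes tested had a lower mean than in Saline, while the share was 54.9% for Low Protein and 49.3% for Poly I:C, and of the genes called at an unadjusted p under 0.05, 78.1% were lower in MAM. Rescaling each pup by the median of its ratios to the all-pup geometric mean put 36.6% of the MAM calls on the lower side. With that scaling, the median of the 9 genes in MAM was -0.07 with 8 of 9 lower and 0 called, and Stx1a was at 0.00. For Low Protein the share of calls that were lower was 62.5% as deposited and 48.8% rescaled, and the median of the 9 genes was -0.15 with 1 called. For Poly I:C it was 58.1% as deposited and 55.1% rescaled, with 4 called. After upper-quartile scaling, the shares of calls that were lower were 68.3% for Low Protein, 55.2% for MAM and 72.2% for Poly I:C. Of the 9 genes, 2, 2 and 6 were then called. Among all 13371 genes, upper-quartile scaling called 736, 605 and 1074 lower, and median-of-ratios scaling 505, 381 and 794.

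No gene of the 9 was called between 2 treatment groups. In Low Protein against MAM, Low Protein against Poly I:C and MAM against Poly I:C, limma gave 0 of 9 genes at an unadjusted p under 0.05, with lowest p of 0.263, 0.178 and 0.266, where 8.5%, 4.77% and 17.7% of all genes passed. The widest gap was in Syn2, where Low Protein was above Poly I:C by 0.19 on the log2 scale, with an interval from -0.12 to 0.50. The narrowest intervals were those of Rab3a, from -0.11 to 0.14, from -0.04 to 0.20 and from -0.06 to 0.19. In the order of mean TPM, Saline was highest for 8 of the 9 genes, and neighbours among the 3 treatment groups did not differ beyond their spread when all pups were used. Without Poly I:C pups 2.2 and 2.3, Syn1 (-0.26), Sv2a (-0.25) and Stx1a (-0.16) were called lower in Low Protein than in Poly I:C on the log2 scale, and Syn1 (-0.24) and Syt1 (-0.27) were called lower in MAM than in Poly I:C. Of all genes, 6.95% and 18.2% were lower by the same rule, so that 2 of 9 for MAM is close to the background. The pups left out had the lowest averages of these same genes. Leaving them out raises the Poly I:C means, so these calls were partly built in and give no separate support. The lowest adjusted p in limma were then 0.442 and 0.131.

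The litters differed in how evenly they carried the change. Both Low Protein litter means were below both Saline litter means for 8 of 9 genes, which held for 22.9% of all genes, and both MAM litter means for 7 of 9, against 40.7%. For Poly I:C this held for 3 of 9 (Syp, Syn2 and Rab3a), against 17.3% of all genes. With 2 litters a group the exact permutation test over litters cannot go below p = 0.333. In limma on the 8 litter means, 0, 0 and 1 of 9 genes were called, the 1 being Syn2 in Poly I:C with an unadjusted limma p of 0.0360 and an adjusted p of 0.833. Among all 13371 genes, 440, 539 and 512 were called lower on litter means. The Syp litter means were 14.2 and 14.4 among the Saline pups, 12.5 and 12.8 among those of Low Protein, 13.1 and 12.2 among those of MAM and 13.6 and 11.0 among those of Poly I:C.

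In Poly I:C, litter 2 was lower than litter 1 for all 9 genes. The log2 difference was -0.50 in Syt1, -0.41 in Syn1, Syn2 and Sv2a, -0.32 in Syp and Snap25, -0.29 in Vamp2, -0.26 in Stx1a and -0.19 in Rab3a. In limma with the 8 litters as the groups, 7 of 9 had an unadjusted p under 0.05 (all but Syn2 and Snap25), against 9.92% of all genes called lower, and 0 of 9 passed after adjustment, with a lowest adjusted p of 0.212. The corresponding litter differences of the 9 genes had no unadjusted p under 0.05 in Saline, Low Protein or MAM. Among all 13371 genes, 317, 1296 and 248 were called in either direction between those litters. The comparison of the Poly I:C litters was chosen after the values had been seen.

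Pups 2.2 and 2.3 were lower than their littermate. Averaged over the 9 genes, the log2 value relative to the Saline mean was -0.57 in pup 2.2 and -0.45 in pup 2.3, against -0.07 in their littermate 2.1 and 0.00, -0.07 and 0.01 in litter 1. The next lowest of the 24 pups were MAM 2.2 and 2.3, at -0.32 and -0.31. Pup 2.2 was among the lowest 2 of 24 for 7 of the 9 genes and pup 2.3 for 8 of 9. Their estimated depths were 40.5 and 31.3 M reads, within the range of the other pups.

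Leaving pups 2.2 and 2.3 out, a choice made after their values were seen, gave a Poly I:C median of -0.02 over the 9 genes and 0 called, with Syp at -0.09 (SE 0.063) and Syn2 at -0.22 (SE 0.11, unadjusted limma p of 0.0563). With litter 1 alone the median was -0.01, 5 of 9 genes had lower means and 0 were called, where 2.43% of all genes were called lower. With litter 2 alone the median was -0.35 and all 9 had lower means. In that fit 8 were called before adjustment, and Syp and Rab3a passed after it, with adjusted p in limma of 0.0405 and 0.0482. The shares of all genes lower in that fit were 12.3% before and 1.28% after adjustment. The Poly I:C pups in that fit were littermates from 1 dam but counted as separate samples. They include pups 2.2 and 2.3, which had the lowest averages of these same genes, so the calls were partly built in. Whether the treatment or the litter gave these calls was not tested. Without the 2 pups, the Low Protein and MAM counts were 6 and 5, against 6.55% and 9.6% of all genes called lower, since all groups share 1 estimate of the spread.

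**Figure D3:**
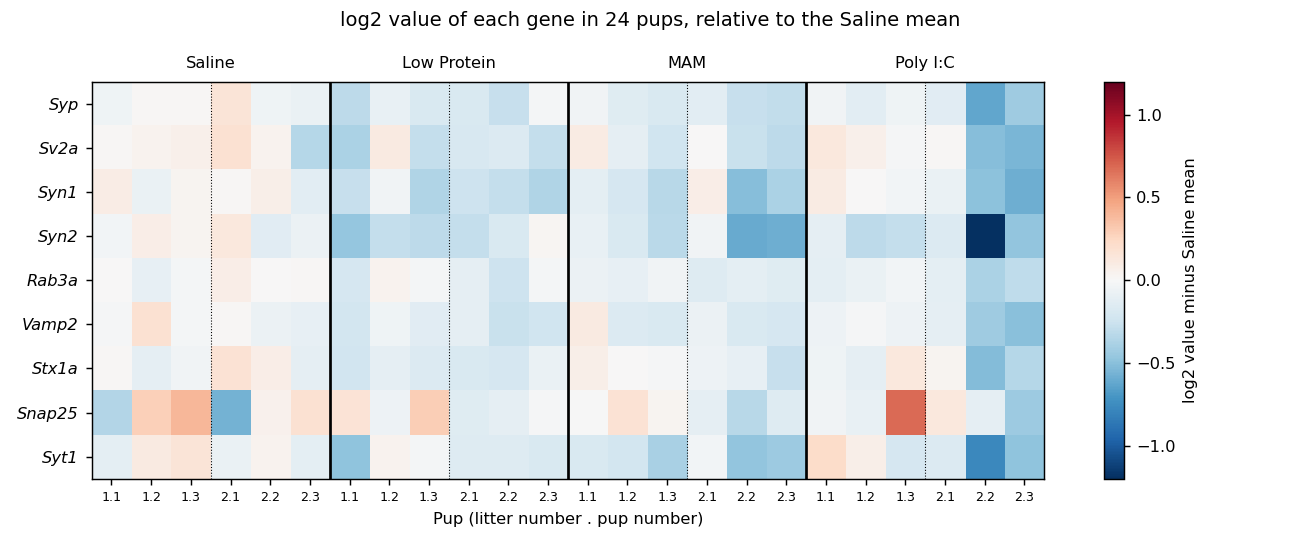
Log2 value of each gene (rows) in each of the 24 pups (columns, litter and pup number), relative to the mean of the 6 Saline pups. Blue is lower and red is higher, and the columns of Poly I:C pups 2.2 and 2.3 are the darkest blue, with averages of -0.57 and -0.45.

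**Figure D4:**
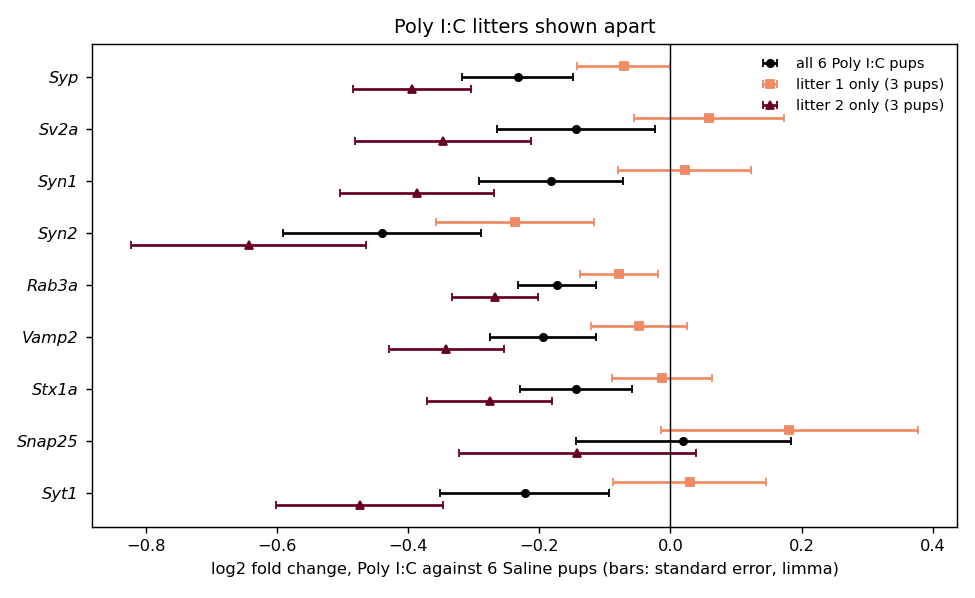
Log2 fold change of Poly I:C against the 6 Saline pups (x axis) for each gene (y axis), with all 6 Poly I:C pups, with litter 1 only and with litter 2 only, and bars for the standard error in limma. Litter 1 points lie near 0, with a median of -0.01, and litter 2 points lie lower, with a median of -0.35.

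Across the 24 pups, 8 of the 9 genes varied together and Snap25 did not vary with them. Over the 28 pairs without Snap25, Pearson's r of the log2 values was between 0.562 (Stx1a and Syt1) and 0.905 (Syp and Syn2), with a median of 0.761. With group means removed, the range was 0.529 to 0.879 and the median 0.751. The 8 pairs with Snap25 had r from 0.103 to 0.273. The pups share litters, depth and dissection, so these values are descriptions.

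Syp followed the average of the 9 genes' standardised values, which includes it, most closely, with r = 0.955 over 24 pups, and Snap25 least, with r = 0.344. Genes outside the 9 with a higher r than the member's own numbered 2 for Syp, 48 for Vamp2 and 199 for Rab3a. The shared pattern was thus not particular to the 9 genes. Of all other genes tested, those with a pattern most like the average, by Pearson's r over 24 pups, were Ndrg4 (0.968), Ptprn2 (0.958), Rab6b (0.943), Ptpro (0.938) and Celf4 (0.937). Ndrg4, the closest, had mean TPM of 6.14 for Saline, 5.15 for Low Protein, 5.31 for MAM and 5.05 for Poly I:C.

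Most other genes of the vesicle cycle had lower means as well. Of 92 genes listed in 6 groups by role, 91 were tested, and 82 (Low Protein), 85 (MAM) and 73 (Poly I:C) of them had lower means. The medians were -0.15, -0.18 and -0.16 on the log2 fold scale. At an unadjusted p under 0.05 in limma, 10 were lower and 0 higher for Low Protein, 19 lower and 1 higher for MAM, and 16 lower and 1 higher for Poly I:C, and 0 of 91 passed after adjustment in any of the 3, with lowest adjusted p of 0.684, 0.504 and 0.322. The shares of all genes called lower and called higher were 4.43% and 2.66% for Low Protein, 7.64% and 2.15% for MAM, and 5.35% and 3.85% for Poly I:C. Without Poly I:C pups 2.2 and 2.3, 57 of the 91 had lower Poly I:C means, with a median of -0.02, and 3 were called lower and 0 higher. The 3 were 1 gene each in the vesicle membrane, SNARE and Rab3 lists described below, and the other lists had 0. Sncb was still called then, at -0.26 with an unadjusted limma p of 0.0195, while Doc2a (-0.17), Rab3b (-0.15), Dnm3 (-0.15) and Hspa8 (0.11) were not.

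Among 10 further calcium sensors, 1 was lower with Low Protein, 2 with MAM and 3 with Poly I:C, the order used below. Doc2a, a sensor with high affinity for calcium, was the single gene of the 6 lists called in all 3 groups. Its TPM was 1.65 ± 0.284 (SD, n = 6) for Saline, 1.14 ± 0.202 for Low Protein, 1.25 ± 0.292 for MAM and 1.26 ± 0.337 for Poly I:C. On the log2 scale these were changes of -0.54, -0.42 and -0.43 (SE 0.19) with unadjusted limma p of 0.0101, 0.0397 and 0.0362. Poly I:C litter 1 averaged 1.48 and litter 2 averaged 1.04.

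In the 13 further genes of the vesicle membrane and of vesicle clustering, 1, 1 and 2 were lower, and Syngr1 was higher in MAM. Sncb, the presynaptic protein beta-synuclein, was 6.28 ± 0.627 for Saline, 4.90 ± 0.538 for Low Protein, 5.65 ± 0.782 for MAM and 4.64 ± 0.998 for Poly I:C (SD, n = 6). It was called lower by limma in the first and the last of the treatments, with unadjusted p of 0.0103 and 0.00157.

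In the 16 further SNAREs and SNARE regulators, 3, 4 and 2 were lower. Napb, the beta-SNAP that helps to take used SNARE complexes apart, was lower in Low Protein at -0.38 and in MAM at -0.43 (SE 0.17, unadjusted limma p of 0.0327 and 0.0166), and it was at -0.28 in Poly I:C without passing. The 20 tested genes of the Rab3 cycle and the active zone had 2, 3 and 4 lower. Rab3b, a close relative of Rab3a, was lower in Low Protein and Poly I:C at -0.27 and -0.27 (SE 0.12).

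Of the 12 genes that fill vesicles with transmitter, 2, 1 and 0 were lower, and none in more than 1 group. The 20 genes of vesicle recycling had 1, 8 and 5 lower, with Hspa8 higher in Poly I:C. Dnm3, a dynamin of membrane fission, was lower in MAM and Poly I:C at -0.36 and -0.28 (SE 0.13), and Snap91, a clathrin assembly protein, was lower in Low Protein and MAM at -0.29 and -0.30 (SE 0.11). Hspa8, the chaperone that strips clathrin from vesicles and serves many other proteins, differed in sign. It was 909 ± 28.8 in Saline, 811 ± 57.5 in MAM and 1011 ± 73.4 in Poly I:C (SD, n = 6). On the log2 scale the changes were -0.17 and 0.15, with unadjusted limma p of 0.00512 and 0.0102. Hspa8 has many near-identical copies in the genome, so reads may have been split among them.

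Of the cell type marker lists, that of postmitotic neurons had lower medians in all 3 groups, as did the striatal list described below. The progenitor medians were not lower. The part of cell types in the result was not tested. Of 14 genes of postmitotic neurons, 14, 13 and 12 had lower means, with medians of -0.13, -0.17 and -0.13 and 0, 2 and 1 called lower by limma before adjustment. Of all genes tested, 54.9%, 70.6% and 49.3% had lower means. By the same rule 4.43%, 7.64% and 5.35% of all genes were called lower and 2.66%, 2.15% and 3.85% higher. In lists this short the counts called are descriptions only. Their summed TPM was 384 to 430 for Saline, 358 to 408 for Low Protein, 371 to 422 for MAM and 338 to 415 for Poly I:C. Tubb3 and Ina, the most abundant, had log2 fold changes of -0.09, -0.01 and -0.11 and of -0.20, -0.21 and -0.04. Of 13 genes of radial glia and progenitors, 0, 2 and 3 were called higher, among them Hes1 in MAM and Poly I:C at 0.27 and 0.23, and the medians were 0.10, 0.00 and 0.15. Without Poly I:C pups 2.2 and 2.3, 0 genes of the marker lists were called in Poly I:C, and the neuron and progenitor medians there were -0.02 and 0.07. The 2 most abundant, Fabp7 and Vim, were at -0.03, -0.20 and -0.08 and at 0.10, 0.05 and 0.15.

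The neuron list was lowest in the same pups as the vesicle genes. Its average log2 value relative to Saline was -0.32 and -0.37 in Poly I:C pups 2.2 and 2.3. The blood list there was at 0.67 and 0.68, but it was at 0.85 in Low Protein pup 2.2, whose vesicle average was -0.21. The choroid plexus, progenitor and dorsal telencephalon lists were at 0.79, 0.29 and 0.32 in Poly I:C pup 2.2 and at 0.25, 0.18 and 0.03 in Poly I:C pup 2.3. With the pup's neuron average as a covariate in limma, the medians of the 9 vesicle genes were -0.06, -0.04 and -0.07, and 0, 0 and 3 of 9 were called at an unadjusted p under 0.05. The 3 were Rab3a, Syn2 and Syp. With that covariate 179, 279 and 425 of all 13371 genes were called lower, fewer than in the main fit. The vesicle genes are themselves expressed in neurons, so the covariate is not independent of them.

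**Figure D5:**
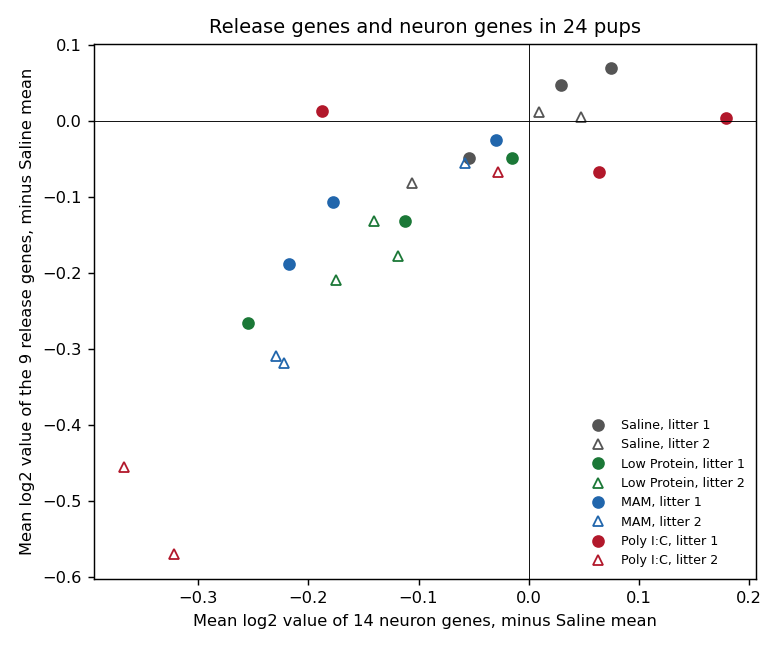
Average log2 value of the 9 release genes (y axis) against that of 14 neuron genes (x axis) in each of 24 pups, both relative to the Saline mean, with litter 1 filled and litter 2 open. The 2 lowest pups are Poly I:C 2.2 and 2.3, at -0.57 and -0.45 on the y axis.

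The dissection marked the tissue as dorsal forebrain, with some differences between pups. The 9 dorsal telencephalon genes summed to between 219 and 445 TPM, with Neurod6 among the most abundant, and none was at the offset in all pups. Their medians were 0.19, 0.11 and 0.16. In Low Protein 2 of them were called higher and 1 lower, against 2.66% and 4.43% of all genes. Lhx2 was called higher in all 3 groups at 0.25, 0.25 and 0.28. The 11 striatal genes summed to between 7.08 and 23.8, with medians of -0.29, -0.38 and -0.14 and 2 called lower in MAM, against 7.64% of all genes. Penk, among the most abundant of them, was at -0.25, -0.07 and -0.23. Saline pup 2.1 had the lowest dorsal average, -0.60, and the highest striatal average, 0.85, of its group.

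The remaining marker lists differed less evenly. The 7 thalamic genes had medians of -0.26, -0.31 and 0.19, the 7 choroid plexus genes 0.04, -0.34 and -0.10, the 6 tested blood genes 0.12, 0.12 and 0.30, the 7 meningeal genes 0.01, -0.03 and 0.02, and the 8 microglial genes 0.12, 0.19 and 0.11. Those called before adjustment were 1 thalamic gene higher in Poly I:C and 1 blood and 2 microglial genes higher in MAM. Of all genes, 3.85% were called higher in Poly I:C and 2.15% in MAM. The most abundant members were Gbx2 and Calb2 for thalamus, Ttr and Aqp1 for choroid plexus, Hbb and Hba-a1 for blood, Col1a1 and Col3a1 for meninges and C1qc and C1qa for microglia. The summed choroid plexus level ran from 33.9 to 252 TPM within Poly I:C alone.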

How the data were processed

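The authors trimmed paired reads at phred 30 in Partek Flow, aligned them to the rn6 genome with STAR 2.4.1d, counted them against RefSeq release 80 and deposited TPM values with an offset of 0.0001 added. All columns were matched to a labelled pup. No count table was used, so precision rests on an approximate depth: among low values times the GRCr8 gene span, 49.0% to 54.3% lay within 0.05 of a whole read, against 10% by chance.

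Values were log2-transformed and fitted in limma 3.58.1 (R 4.3.3) with 4 group means over 24 pups. Genes above the offset in at least 18 pups were tested (13371) and adjusted by Benjamini-Hochberg. The study's own filter, a mean above 1 in each group, leaves 5086 genes and 6 of the 9 members (not Syn2, Syt1 or Snap25). The fit was tested on simulated data. The exact permutation test used all 924 splits of 12 pups. Littermates share a dam, which the main fit does not model. Litters were read from the first number of the sample names. The genes and lists were chosen with earlier results of these data known.

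Named were all 9 members, in each pathway list up to 4 genes called in at least 2 of 3 comparisons, in each marker list the 2 of highest mean, and the 5 genes most correlated with the members' average. Some marker genes that this rule covers are not reported here. Other genes named were singled out after their values were seen. Alternatives tried were filters, pseudocounts of 0.01 and 1, scalings, other variance settings, litter and replicate blocks, a neuron covariate, and leaving out pups or litters.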

Additional observations from a re-analysis of the deposited data

Results flagged for a closer look

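Of 36 sets of 6 pups (9 genes in 4 groups), 4 held a pup set apart from the other 5 by more than the 95% limit of Dixon's gap test, where chance gives about 5% of sets. The highest Saline value of Syp was 15.9 in pup 2.1, and the highest Saline value of Vamp2 was 79.2 in pup 1.2. The highest Low Protein value of Syn1 was 2.22 in pup 1.2. The lowest Saline value of Sv2a was 7.99 in pup 2.3. No Poly I:C set was flagged. The test looks for 1 pup at a time, and pups 2.2 and 2.3 were among the lowest 2 of 24 for 7 and 8 of the 9 genes. Why no set was flagged was not tested.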

How the results depend on the processing

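Of 1260 alternative values for single genes, 1074 kept their direction and their side of the unadjusted threshold, 124 lost it, 35 gained it and 27 changed sign. The number of the 9 genes called was 3 for Low Protein, 3 for MAM and 4 for Poly I:C against Saline. In that order, it was 1 and 0 with median-of-ratios scaling, 5 and 5 with each comparison fitted on its own groups, 0, 0 and 1 on litter means (fewer samples), 0 and 0 with the neuron covariate, and 6, 5 and 0 without Poly I:C pups 2.2 and 2.3. Called lower among all 13371 genes were 505 and 381 with median-of-ratios scaling and 892 and 1421 on own groups. On litter means they were 440, 539 and 512, with the neuron covariate 179 and 279, and without the 2 pups 876, 1283 and 294. Between treatments the count of 0 became 3 (Low Protein against Poly I:C) and 2 (MAM against Poly I:C) without those pups, and 1 (MAM against Poly I:C) with the neuron covariate. Medians moved to -0.055, -0.039 and -0.074 with the neuron covariate, to -0.074 in MAM with median-of-ratios scaling, and in Poly I:C to -0.12 with a pseudocount of 1 and -0.020 without the 2 pups.

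Signs changed with the neuron covariate for Syt1 in Low Protein (0.060), Stx1a (0.037), Vamp2 (0.017) and Sv2a (0.082) in MAM and Sv2a in Poly I:C (0.012). They also changed for Stx1a in MAM with median-of-ratios scaling (0.0024), Snap25 in Poly I:C with upper-quartile scaling (-0.0035) and Sv2a in Poly I:C without the 2 pups (0.048). The cause was not tested.

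Leaving out 1 pup or litter at a time gave 0 to 6 called genes for Low Protein, 0 to 5 for MAM, 0 to 8 for Poly I:C (0 to 2 after adjustment), and 0 to 4 in Low Protein or MAM against Poly I:C. The median was -0.20 to -0.083 for MAM and -0.35 to -0.013 for Poly I:C. Fold changes that crossed 0 were Snap25 (-0.090 to 0.14 for Low Protein, -0.20 to 0.064 for MAM, -0.14 to 0.18 for Poly I:C), Stx1a in MAM (-0.14 to 0.019), and in Poly I:C Sv2a (-0.35 to 0.059), Syn1 (-0.39 to 0.022) and Syt1 (-0.47 to 0.029). In Poly I:C the extremes are the fits on 1 litter.

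Pup numbers are shared by the groups and were not used as pairs in the main fit. Correlations of same-numbered deviations with Saline ran from -0.16 to 0.20, and 7 of 24 pups correlated best with their own number in another group. These values do not settle whether the numbers mark pairs. With the replicate block, 3, 4 and 4 of 9 genes were called, and 1184, 1616 and 1431 of all genes against 947, 1309 and 1230 without it.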
